A study of Mus musculus with 8 samples.

Results

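The genes described here encode subunits of oxidative phosphorylation, the system by which mitochondria turn the energy of nutrients into ATP. They were taken by gene symbol from the platform annotation: the Nduf genes of complex I, Sdha to Sdhd of complex II, Cyc1 and the Uqcr genes of complex III, Cycs for cytochrome c, the Cox4 to Cox8 genes of complex IV and the Atp5 genes of complex V. Of 22180 genes measured by a row with 1 symbol, 82 were members: 33 for complex I, 4 for complex II, 9 for complex III, 1 for cytochrome c, 17 for complex IV and 18 for complex V. Where a gene had several rows, which was so for 10 members, the row with the highest mean was taken. A further 10 rows pair such a symbol with that of another gene and were left out. Uqcrh-ps1 and Atp5c1-ps are pseudogenes by name, and 8 members are isoforms that other tissues are known for.

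In the respiratory chain, complexes I and II pass electrons from NADH and succinate to ubiquinone, complex III passes them on to cytochrome c, and complex IV hands them to oxygen. Complexes I, III and IV pump protons across the inner mitochondrial membrane, and complex V, the ATP synthase, uses their return to make ATP. Most subunits are encoded in the nucleus and imported, while a small set is encoded in mitochondrial DNA. Quiescent stem cells of several tissues are known for relying on this system less than their dividing descendants do.

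The study measured gene expression on 8 Affymetrix arrays, each loaded with amplified and biotin-labelled complementary DNA from cells sorted out of mouse skin. The P21_KO group held 4 arrays from mice of 21 days with floxed alleles of the kinase gene B-raf (B-raf fl/fl) and of another gene, together with TyrCre/° and Z/EG. The P21_WT group held 2 arrays from mice of 21 days, and the P4_WT group 2 arrays from pups of 4 days, both B-raf +/+ and wild type at the other gene, again with TyrCre/° and Z/EG. All 3 groups thus carry the Cre transgene, which is driven by the tyrosinase promoter of the pigment lineage, and the Z/EG transgene, whose green fluorescent protein appears after Cre has acted, and all were on a mixed C57Bl/6 and 129/Sv background. Cells that were positive for the fluorescent protein and negative for the surface receptor p75 were sorted, and the labels call them melanoblasts at 4 days and melanocyte stem cells at 21 days. The design sets melanocyte stem cells against melanoblasts, and stem cells meant to lack both genes against stem cells that have them. The labels call the arrays of a group biological replicates, and 3 of the 4 P21_KO arrays share a number whose meaning is not stated. P-values measure the spread between these arrays, which may be technical in part.

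All values are on the log2 scale, so a difference of 1 is a doubling, and they ran from 0.913 to 12.2 with a median of 3.23. Values of different genes on an array depend on their probes and were not set against each other. Arrays of 1 group correlated at 0.954 to 0.974 across all genes, and the number of arrays limits the precision. Braf read 6.57, 6.49, 6.30 and 5.66 in P21_KO, 5.99 and 7.20 in P21_WT, and 5.80 and 6.00 in P4_WT, so the groups overlapped. Whether its probes fall inside the floxed part could not be read from the files, so these values do not check the deletion.

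The sorted cells carried the pigment lineage's own markers. All 9 listed melanocyte markers were measured, and each read above the median of all values on every array. Their mean was 8.53, 8.06, 7.54 and 6.99 in P21_KO, 9.04 and 8.81 in P21_WT, and 9.74 and 9.70 in P4_WT. Summed on the linear scale they ran from 1580 to 4280 in P21_KO, from 5290 to 6010 in P21_WT and from 9850 to 10600 in P4_WT. Dct, a melanin enzyme gene, was lowest on P21_KO replicate 4, at 8.76. The 4 measured of 5 cycling cell markers summed to 49.4 to 78.8 in P21_KO, 88.7 to 96.2 in P21_WT and 748 to 824 in P4_WT. Markers of other skin cells also set the P4_WT arrays apart. Markers of the hair shaft and inner root sheath averaged 7.57 on P4_WT replicate 1 and 5.21 on P4_WT replicate 2, against 2.73 to 2.92 at 21 days. Endothelial markers averaged 5.97 and immune cell markers 5.07 on P4_WT replicate 2, against 3.01 to 3.48 and 2.88 to 3.26 on the other arrays. Adipocyte markers summed on the linear scale to 1020 on P4_WT replicate 2, against 83.6 to 250 on the other arrays. Fibroblast markers averaged 6.37 to 7.15 over all arrays, and the groups overlapped. Keratinocyte markers averaged 7.21 to 8.17 in P21_KO, 8.14 and 8.01 in P21_WT, and 7.55 and 6.72 in P4_WT. Their linear sum was highest on P21_KO replicate 4, at 4550. The part of these markers in the subunit values was not tested. P21_KO replicate 4 stood apart on the second principal component, at 48.4 against -22.5 to 10.2 on the other arrays.

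For 4 members the stretch of 250 bases before the gene's start is shown, chosen after their values were seen, because their changes are described below and their promoters differ in the motifs they hold. The sequences are RefSeq's, on assembly GRCm38.p6, all read on the minus strand, and the 4 stretches are chr9:50603850-50604099 for Sdhd, chr11:115419920-115420169 for Atp5h, chr10:80406822-80407071 for Uqcr11 and chr6:11907451-11907700 for Ndufa4. Capitals mark the motif of NRF1 (GCGCA, then any base, then GCGC), a factor known for driving respiratory genes, and the motif CCGGAAG of ETS factors, such as GABP, on either strand.
Sdhd: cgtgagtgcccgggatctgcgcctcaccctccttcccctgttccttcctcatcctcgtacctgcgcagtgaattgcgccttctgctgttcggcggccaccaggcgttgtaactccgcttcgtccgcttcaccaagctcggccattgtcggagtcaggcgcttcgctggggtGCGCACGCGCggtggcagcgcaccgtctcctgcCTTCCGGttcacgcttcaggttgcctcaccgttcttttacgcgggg
Atp5h: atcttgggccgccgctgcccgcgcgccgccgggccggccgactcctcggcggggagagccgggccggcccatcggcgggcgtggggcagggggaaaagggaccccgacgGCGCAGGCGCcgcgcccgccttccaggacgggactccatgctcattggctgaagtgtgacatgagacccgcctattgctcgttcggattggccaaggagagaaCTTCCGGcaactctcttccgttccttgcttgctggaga
Uqcr11: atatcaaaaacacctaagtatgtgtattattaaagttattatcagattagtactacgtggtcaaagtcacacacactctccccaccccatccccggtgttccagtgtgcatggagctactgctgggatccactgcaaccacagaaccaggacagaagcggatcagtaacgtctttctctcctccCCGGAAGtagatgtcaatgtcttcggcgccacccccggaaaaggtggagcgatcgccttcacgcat
Ndufa4: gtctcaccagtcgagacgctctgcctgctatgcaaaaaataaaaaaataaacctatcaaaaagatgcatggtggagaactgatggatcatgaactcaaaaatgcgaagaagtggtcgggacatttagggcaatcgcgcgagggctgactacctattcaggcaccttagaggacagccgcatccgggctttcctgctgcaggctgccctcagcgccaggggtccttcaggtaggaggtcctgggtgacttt
In the Sdhd stretch the NRF1 motif begins 79 bases and the ETS motif 46 bases before the start, and in the Atp5h stretch they begin 141 and 38 bases before it. Uqcr11 holds an ETS motif 66 bases before its start, and the Ndufa4 stretch holds neither. A RefSeq promoter of 300 bases, from 250 before to 50 after the start, was at hand for 65 members and for 16918 genes of the series.

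Searched on both strands of those windows, the NRF1 motif was in 15 of 65 members (23.1%) and in 7.26% of all genes, and the ETS motif in 17 members (26.2%) and 12.7% of all genes. The motif AAGATGGCG of YY1 was in 6 members (9.23%) and 2.18% of all genes. Any of these 3 was in 33 members (50.8%) against 19.8% of all genes. By contrast the GC-box motif GGGCGG, which Sp1 binds, was in 28 members (43.1%) and 49.6% of all genes, and is contained in none of the other motifs. TCAAGGTCA, bound by the estrogen-related receptors, was in 2 members, Sdhd and Atp5g3, and in 0.366% of all genes. Complex V had at least 1 of the NRF1, ETS and YY1 motifs in 11 of 15 promoters and complex IV in 3 of 13. A match describes the letters in this window and does not show a bound site.

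Subunit genes of every complex were lower on the P21 arrays than on the P4_WT arrays. Averaged over the 82 members, the log2 value was 6.81, 6.39, 6.61 and 6.80 in P21_KO, 6.78 and 6.86 in P21_WT, and 7.26 and 7.24 in P4_WT. All 6 arrays of 21-day cells lay below both P4_WT arrays, while P21_KO and P21_WT overlapped. P21_KO replicate 2 was the lowest array. RMA, the authors' normalization, brings all arrays to 1 distribution before it summarises probe sets. The values are therefore levels relative to the other genes of an array, and differences in total RNA cannot be seen. The deposited values kept small differences: array medians were 3.16 and 3.18 in P4_WT and 3.23 to 3.27 at 21 days. Genes above the median of all values averaged 5.22 and 5.24 in P4_WT and 5.07 to 5.22 at 21 days. In sorted bulk samples, fewer cells of a type and less RNA per cell cannot be told apart. The plot of all members on all arrays shows this by gene.

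**Figure D1:**
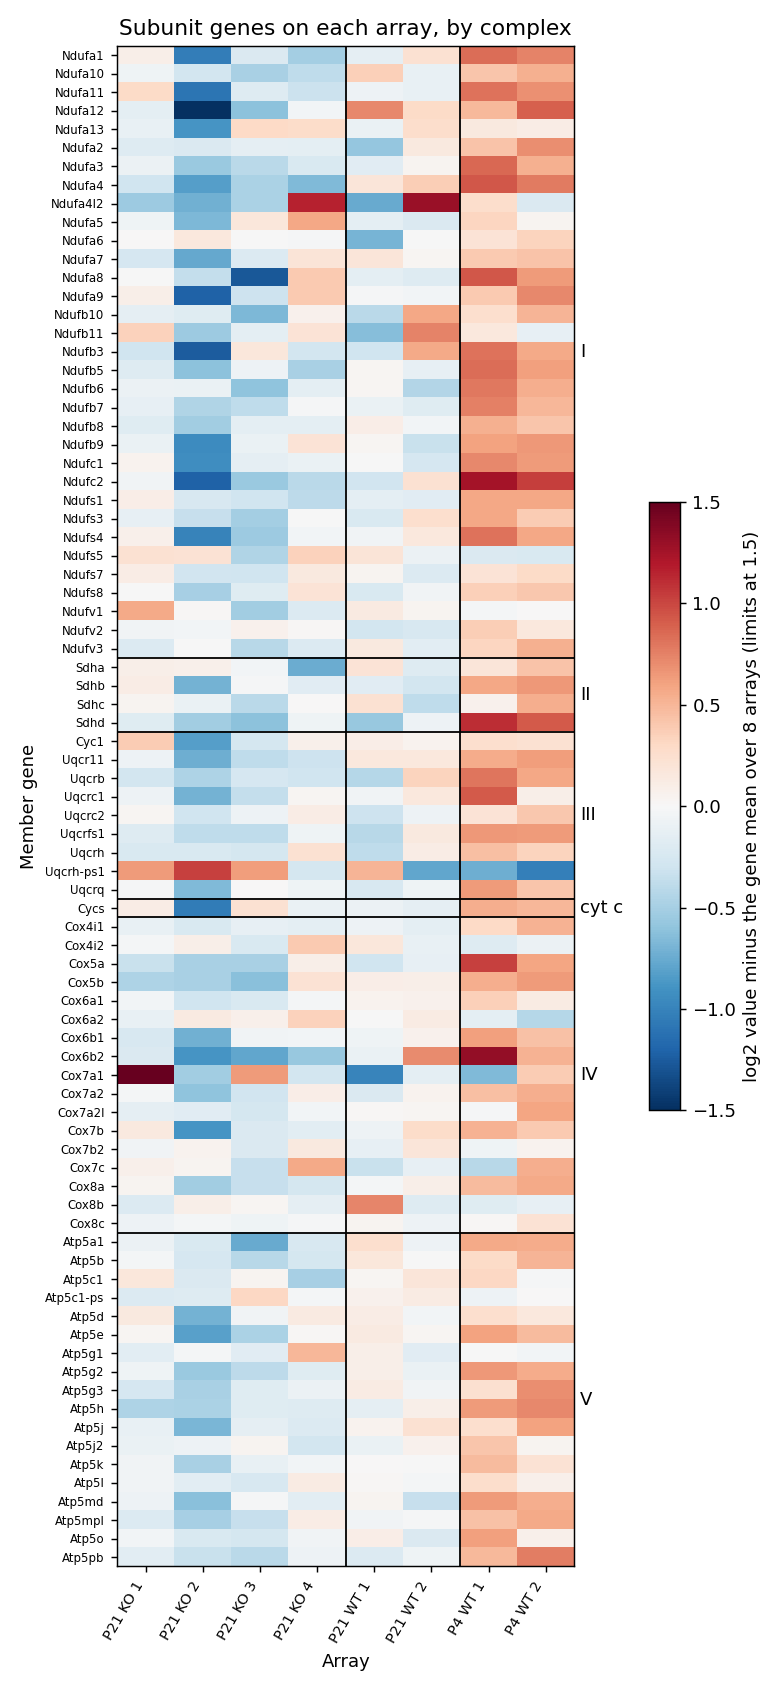
Log2 value of each of the 82 subunit genes (down the page, by complex) on each of the 8 arrays (across), as the difference from the gene's mean over the 8 arrays, with colours limited at 1.5. The 2 P4_WT columns are red for most genes, the P21_KO and P21_WT columns are mostly pale or blue, and P21_KO replicate 2 is the bluest.

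The age comparison, P21_WT minus P4_WT, sets melanocyte stem cells against melanoblasts of wild-type mice. Of 82 members 72 had a negative log2 change, with a median of -0.46, while 49.8% of all genes were negative and their median was 0.00. Both P21_WT arrays lay below both P4_WT arrays for 57 members (69.5%), against 22.1% of all genes. Single genes seldom passed the test: limma called 1 member lower and 0 higher at an adjusted p under 0.05, and 0.852% of all genes lower and 0.757% higher (1.38% lower among genes above the median of all values). At an unadjusted p under 0.05, 28 members were lower and 0 higher, and of all 22180 genes 1654 were lower and 1146 higher. Among the 11912 genes that averaged above the median of all values, which take in 75 members, 54.7% were negative, against 69 of those 75 members.

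By complex, the median age change was -0.56 for complex I (29 of 33 negative), -0.61 for complex II (4 of 4), -0.50 for complex III (8 of 9), -0.36 for complex IV (13 of 17) and -0.38 for complex V (17 of 18). Cycs, the carrier between complexes III and IV, had a change of -0.64. The value for complex IV takes in 7 isoform genes that are best known from other tissues. Without them its median was -0.50, with 10 of 10 negative. Differences between complexes were not tested, and their ranges overlapped, as the plot of changes by complex shows.

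**Figure D2:**
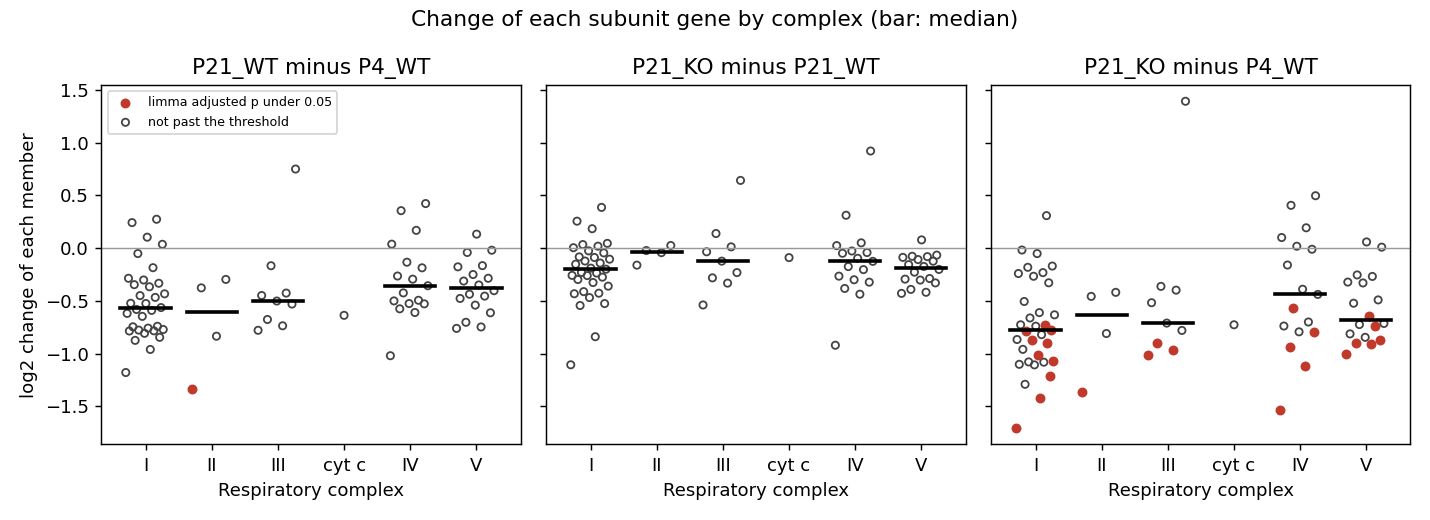
Log2 change of each subunit gene (points) by respiratory complex in the 3 comparisons, with the median as a bar and genes past limma's adjusted p of 0.05 filled. The medians lie below 0 in each panel, 1 gene is filled in the age panel, none in the genotype panel and 25 in the panel of P21_KO minus P4_WT.

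The genotype comparison, P21_KO minus P21_WT, asks what loss of both floxed genes changes in stem cells of 1 age. No member passed the test, nor did any gene of the array (limma: 0 lower and 0 higher, 0% of all genes). At an unadjusted p under 0.05, 5 members were lower and 0 higher, and over all genes 818 were lower and 629 higher. Small differences ran mostly one way: 66 of 82 members were negative, with a median of -0.16, against 48.6% of all genes and a median of 0.01. All 4 P21_KO arrays lay below both P21_WT arrays for 13 members (15.9%), against 7.64% of all genes, and above them for 1 member, against 7.75%. Of the 75 members above the median of all values 61 were negative, against 52.1% of such genes. The complex medians were -0.20 for complex I, -0.03 for complex II, -0.12 for complex III, -0.12 for complex IV and -0.19 for complex V, where 17 of 18 were negative. Without P21_WT replicate 1 the median of complex II was 0.0598, without P21_KO replicate 3 it was 0.0105, and without P21_WT replicate 2 that of complex III was 0.0493. P21_KO replicate 2 was the lowest P21_KO array for 47 of 82 members, against 23.3% of all genes, and without it the median over members was -0.07. The melanocyte markers had a median genotype change of -1.07, with 7 of 9 wholly below P21_WT (7 at an unadjusted p under 0.05, 0 called by limma). The cycling markers had a median of -0.72 and the keratinocyte markers one of -0.46, with 6 of 6 negative. The part of these markers in the result was not tested.

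The third comparison, P21_KO minus P4_WT, differs in both age and genotype, and each change in it is the sum of the other 2. It shares arrays with both and is no independent evidence. Like the genotype comparison it sets 4 arrays against 2. Of 82 members 73 were negative, with a median of -0.72 against 0.02 over all genes, and limma called 25 lower (30.5%) and 0 higher, against 4.68% of all genes lower and 3.05% higher. All P21_KO arrays lay below both P4_WT arrays for 64 members (78.0%), against 15.5% of all genes, and above them for 2 members, against 14.2%. Among the genes above the median of all values, 25 of 75 members (33.3%) fell, against 7.98% of such genes. Of these 75 members, 70 were negative, against 55.2%, and 62 lay below both P4_WT arrays on all P21_KO arrays, against 23.5%. The falls were spread over the complexes: 10 of 33 for complex I, 1 of 4 for complex II, 3 of 9 for complex III, 5 of 17 for complex IV and 6 of 18 for complex V. Medians were -0.77, -0.63, -0.71, -0.44 and -0.68 in that order.

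Calls became fewer whichever array was left out, for members and for all genes, and fewest without a P4_WT array. Without P21_KO replicate 2, 13 members and 3.36% of all genes were called lower. Without P21_KO replicate 3 these were 11 members and 2.99% of all genes, against 25 and 4.68% with all arrays. The median over members stayed between -0.75 and -0.60 whichever array was left out. The markers given above of melanocytes, cycling cells, and the hair shaft and inner root sheath were lower on all P21 arrays together with the subunit genes. The endothelial and immune markers were lower on them than on P4_WT replicate 2. The keratinocyte markers averaged 7.68, 7.21, 7.58 and 8.17 in P21_KO, 8.14 and 8.01 in P21_WT, and 7.55 and 6.72 in P4_WT. The part of all these markers in the result was not tested. The age median was -0.47 without P4_WT replicate 1 and -0.48 without P4_WT replicate 2.

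**Figure D3:**
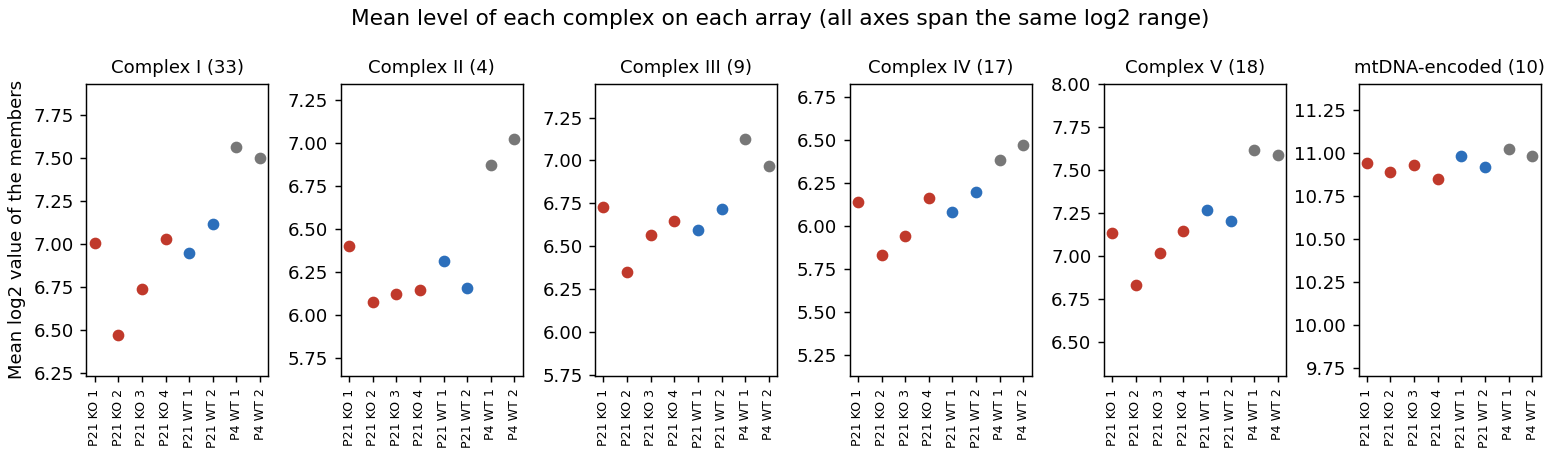
Mean log2 value of the members of each complex on each array, with the 10 measured subunits encoded in mitochondrial DNA at the right, all axes spanning the same log2 range. In each of complexes I to V both P4_WT arrays lie above all 6 arrays of 21-day cells, and the mitochondrial DNA panel is nearly flat between 10.85 and 11.03.

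Complex I takes electrons from NADH through a core of flavin and iron-sulphur subunits, around which many accessory subunits assemble. The nuclear core genes described here are 6. Ndufs1, the largest core subunit, read 5.99, 5.65, 5.59 and 5.50 in P21_KO, 5.74 and 5.72 in P21_WT, and 6.47 and 6.47 in P4_WT. Both P21 groups lay wholly below P4_WT and overlapped each other. Its change of -0.78 ± 0.17 (SE) in P21_KO against P4_WT passed the test (limma adjusted p = 0.0257, kept in 4 of 8 fits that left out an array), and that of -0.74 ± 0.19 in P21_WT against P4_WT did not (adjusted p = 0.123). Among the other core genes, Ndufs3, Ndufs7, Ndufs8 and Ndufv2 had age changes of -0.47, -0.33, -0.52 and -0.52, none past the test. Ndufv1, which binds NADH, read 6.32, 5.76, 5.22 and 5.53 in P21_KO, 5.88 and 5.78 in P21_WT, and 5.71 and 5.74 in P4_WT, with no separation of P21_KO from either group. As a set the core had a median age change of -0.49 and a median of -0.42 in P21_KO against P4_WT, where 1 of 6 fell. The 27 other members of complex I had medians of -0.59 and -0.87, and 9 fell.

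Ndufa4 had the smallest p of all members in both comparisons with P21_KO. It is named for complex I and counted there by its symbol, although its product is now known as a subunit of complex IV. It read 8.81, 8.28, 8.64 and 8.45 in P21_KO, 9.29 and 9.48 in P21_WT, and 10.03 and 9.89 in P4_WT. The 3 groups did not overlap, with P21_KO lowest and P4_WT highest. Against P4_WT, Ndufa4 fell 2.67-fold in P21_KO (log2 -1.42 ± 0.18 SE, limma adjusted p = 0.00315). It is the 1 member whose call held in all 8 fits that each left out an array, with adjusted p from 0.00425 to 0.027. The fits without either P21_WT array are among these 8 and are the same fit. Between P21_KO and P21_WT the change of Ndufa4 was -0.84 ± 0.18, lower on 4 of 4 P21_KO arrays, with a limma adjusted p of 0.479. Ndufa4 lies on chromosome 6, as does Braf. The 4 members on chromosome 6 had a median genotype change of -0.16, and for 1 of them, Ndufa4 itself, all P21_KO arrays lay below both P21_WT arrays. Its relative Ndufa4l2 read 4.15, 3.98, 4.23 and 5.86 in P21_KO, 3.94 and 5.99 in P21_WT, and 4.96 and 4.49 in P4_WT, and varied more within groups than between them.

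Ndufc2, an accessory subunit of the membrane arm, read 8.15, 6.99, 7.65 and 7.80 in P21_KO, 7.92 and 8.43 in P21_WT, and 9.46 and 9.25 in P4_WT. All P21 arrays lay below P4_WT by more than the spread within P4_WT. It fell 3.26-fold in P21_KO against P4_WT (log2 -1.70 ± 0.30 SE, limma adjusted p = 0.0132), the largest fall among the members called, and 6 of 8 fits that left out an array kept the call. Ndufb5 and Ndufa3, also accessory subunits, fell by 1.07 ± 0.19 and 1.02 ± 0.18 on the log2 scale (limma adjusted p = 0.0122 and 0.0139), each kept in 7 of 8 fits. Ndufa1, Ndufa10, Ndufb6, Ndufb7 and Ndufb8 fell as well, with adjusted p from 0.0205 to 0.0415 and calls kept in 2 to 5 of 8 fits. Ndufa12, an accessory subunit of the peripheral arm, showed another pattern. It read 8.44, 6.99, 7.96 and 8.55 in P21_KO, 9.30 and 8.87 in P21_WT, and 9.07 and 9.48 in P4_WT, so that the 2 wild-type groups overlapped and P21_KO lay below both. Its genotype change was -1.11 ± 0.41 (limma adjusted p = 0.712), and P21_KO replicate 2 was its lowest array by over 0.9.

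Complex II, succinate dehydrogenase, is the 1 respiratory complex that also works in the citric acid cycle and has no subunit encoded in mitochondrial DNA. Sdhd, one of its membrane anchors, was the 1 member called in the age comparison. It read 5.20, 4.87, 4.78 and 5.32 in P21_KO, 4.82 and 5.31 in P21_WT, and 6.49 and 6.31 in P4_WT. All 6 arrays of 21-day cells lay about 1 log2 unit or more below both P4_WT arrays, and P21_KO and P21_WT overlapped. Sdhd fell 2.53-fold in P21_WT against P4_WT (log2 -1.34 ± 0.25 SE, limma adjusted p = 0.0414) and 2.56-fold in P21_KO against P4_WT (log2 -1.36 ± 0.21 SE, adjusted p = 0.00781). The age call held in 1 of the 8 fits that left out an array, with adjusted p from 0.0436 to 0.198, and the second call in 7 of 8. Between P21_KO and P21_WT its change was -0.02 ± 0.21.

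The catalytic subunits of complex II changed less clearly. Sdhb, its iron-sulphur subunit, read 6.37, 5.55, 6.24 and 6.09 in P21_KO, 6.09 and 5.99 in P21_WT, and 6.84 and 6.91 in P4_WT. Its groups separated by age but its changes of -0.83 ± 0.26 in P21_WT and -0.81 ± 0.23 in P21_KO, each against P4_WT, missed limma's threshold (adjusted p = 0.201 and 0.0718). Sdha, the flavoprotein, read 7.14, 7.14, 7.02 and 6.31 in P21_KO, 7.27 and 6.86 in P21_WT, and 7.24 and 7.48 in P4_WT, and P21_WT overlapped P4_WT. Sdhc, the other membrane anchor, read 6.88, 6.73, 6.44 and 6.85 in P21_KO, 7.07 and 6.46 in P21_WT, and 6.90 and 7.38 in P4_WT, again with overlap between the wild-type groups.

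Complex III, the cytochrome bc1 complex, has 3 subunits that carry electrons, of which Uqcrfs1, the Rieske iron-sulphur protein, and Cyc1, cytochrome c1, are encoded in the nucleus. Uqcrfs1 read 5.41, 5.22, 5.22 and 5.55 in P21_KO, 5.19 and 5.76 in P21_WT, and 6.26 and 6.25 in P4_WT. All P21 arrays lay below P4_WT, and the fall of 0.90 ± 0.19 in P21_KO against P4_WT passed the test (limma adjusted p = 0.0259, kept in 4 of 8 fits). Cyc1 read 6.89, 5.68, 6.25 and 6.58 in P21_KO, 6.61 and 6.56 in P21_WT, and 6.76 and 6.74 in P4_WT, and its P21_KO arrays spanned all the others. Uqcrb, a subunit near the ubiquinone site, fell by 1.02 ± 0.21 in P21_KO against P4_WT (limma adjusted p = 0.0257, kept in 3 of 8 fits).

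Uqcr11, a small membrane subunit of complex III, read 7.66, 7.01, 7.37 and 7.43 in P21_KO, 7.91 and 7.91 in P21_WT, and 8.30 and 8.37 in P4_WT. Like Ndufa4, it was lowest in P21_KO and highest in P4_WT with no overlap between groups. It fell 1.95-fold in P21_KO against P4_WT (limma adjusted p = 0.0187, kept in 6 of 8 fits), while its genotype change of -0.54 ± 0.19 did not pass (adjusted p = 0.67). The pseudogene Uqcrh-ps1 ran the other way, at 4.07, 4.46, 4.06 and 3.17 in P21_KO, 3.94 and 2.66 in P21_WT, and 2.69 and 2.40 in P4_WT. Its change of 1.39 ± 0.42 in P21_KO against P4_WT, the highest of all members, missed limma's threshold (adjusted p = 0.0911), and whether its probes also pick up Uqcrh was not tested.

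Cytochrome c, encoded by Cycs, read 8.19, 7.03, 8.30 and 7.98 in P21_KO, 7.99 and 7.94 in P21_WT, and 8.63 and 8.57 in P4_WT. Both P21 groups lay below P4_WT, with P21_KO replicate 2 lowest by over 0.9. Its changes of -0.64 ± 0.37 in P21_WT and -0.73 ± 0.32 in P21_KO, each against P4_WT, did not pass the test (limma adjusted p = 0.57 and 0.256).

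**Figure D4:**
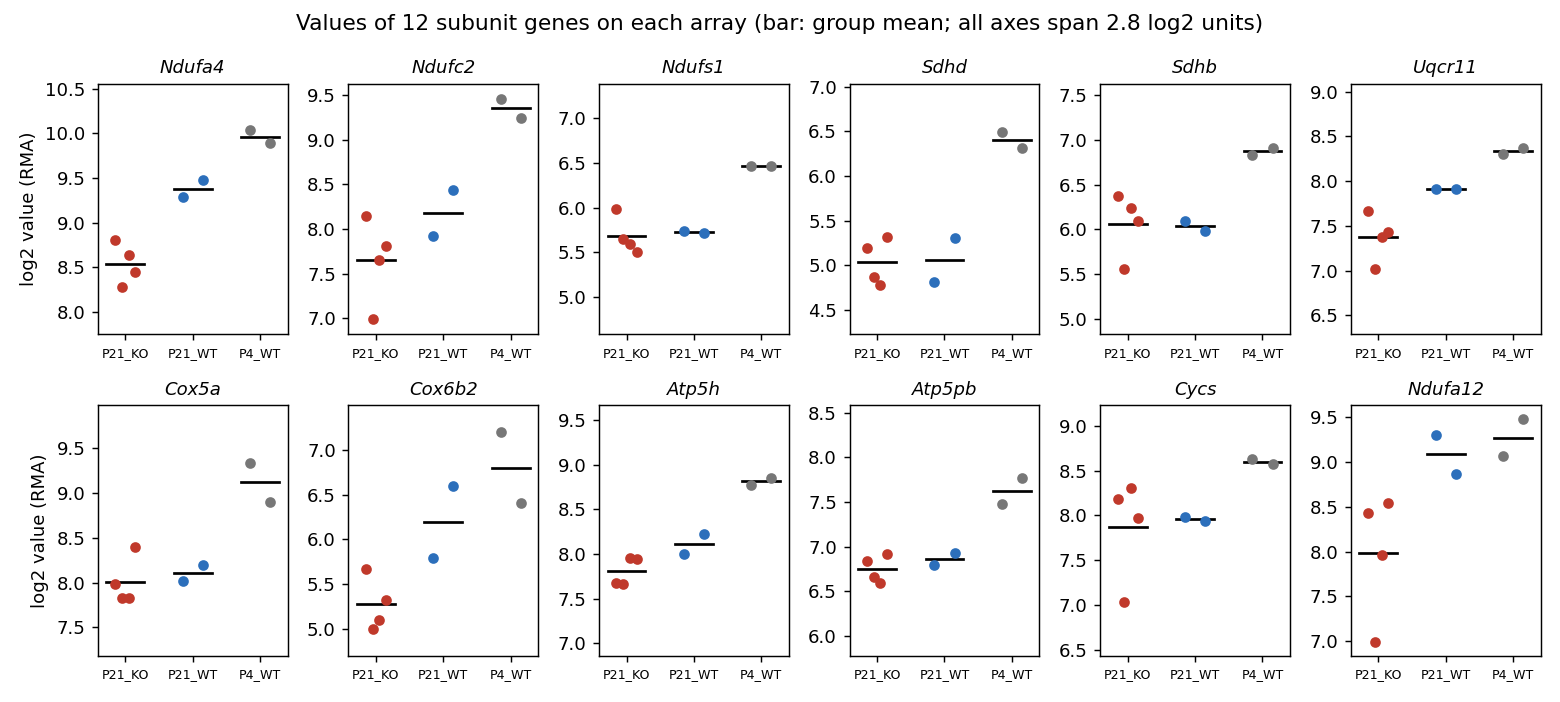
Log2 value of 12 subunit genes on each array (points), with the group mean as a bar and axes that all span the same range. Ndufa4 and Uqcr11 are lowest in P21_KO, higher in P21_WT and highest in P4_WT without overlap, in Sdhd and Ndufs1 the P21 groups overlap below P4_WT, and Ndufa12 separates P21_KO alone.

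Complex IV, cytochrome c oxidase, has a catalytic core encoded in mitochondrial DNA, surrounded by nuclear subunits, several of which exist as isoforms for particular tissues. Cox5a, a subunit on the matrix side, read 7.98, 7.82, 7.83 and 8.40 in P21_KO, 8.01 and 8.19 in P21_WT, and 9.34 and 8.90 in P4_WT. All 6 P21 arrays lay below both P4_WT arrays, and the P21 groups overlapped. It fell 2.17-fold in P21_KO against P4_WT (log2 -1.12 ± 0.21 SE, limma adjusted p = 0.0172), whereas its age change of -1.02 ± 0.25 missed the threshold (adjusted p = 0.0982). Cox4i1, the regulatory subunit of the common form of the complex, read 9.34, 9.22, 9.32 and 9.31 in P21_KO, 9.38 and 9.30 in P21_WT, and 9.75 and 9.97 in P4_WT. Its P21 arrays lay within 0.2 of each other and below P4_WT, and its fall of 0.57 ± 0.14 in P21_KO against P4_WT passed the test (adjusted p = 0.0419), a call kept in 0 of 8 fits that left out an array (adjusted p from 0.0648 to 0.238). Cox5b and Cox8a fell too, with adjusted p of 0.0485 and 0.032, each kept in 1 of 8 such fits, and the call of Cox5a in 7. For Cox5b the brighter row was taken, with a change of -0.94 in P21_KO against P4_WT. Its other row averaged 6.09, above the median of all values, and changed by -0.19.

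The common isoforms and their tissue-restricted relatives differed in their values, though the difference was not tested. Cox6a1, Cox6b1, Cox7a2, Cox7b and Cox8a had age changes of -0.19, -0.53, -0.57, -0.36 and -0.49, and all were lower on both P21_WT arrays, though none passed the test. Of the 8 restricted isoforms 5 were positive in the age comparison, with a median of 0.10, and 3 of them, Cox7b2, Cox8b and Cox8c, averaged below the median of all values. Cox4i2, the isoform known from lung, read 3.82, 3.94, 3.62 and 4.25 in P21_KO, 4.02 and 3.74 in P21_WT, and 3.66 and 3.76 in P4_WT, and its groups overlapped. Cox6a2, known from heart and skeletal muscle, read 3.95, 4.20, 4.14 and 4.41 in P21_KO, 4.06 and 4.19 in P21_WT, and 3.91 and 3.63 in P4_WT, and lay lowest in P4_WT without passing the test. Cox7a1, the muscle isoform, read 4.94, 2.84, 4.00 and 3.08 in P21_KO, 2.37 and 3.22 in P21_WT, and 2.70 and 3.74 in P4_WT. Its genotype change of 0.92 ± 0.59, the highest among members, was carried by P21_KO replicates 1 and 3 and did not pass (limma adjusted p = 0.879). Skeletal muscle markers, all 9 measured, averaged 2.97 to 3.18 in P21_KO, 3.89 and 3.03 in P21_WT, and 2.96 and 3.04 in P4_WT. Their part in the values of Cox7a1 was not tested.

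Cox6b2, known as the testis isoform, was the exception among the restricted isoforms. It read 5.67, 5.00, 5.10 and 5.32 in P21_KO, 5.79 and 6.60 in P21_WT, and 7.20 and 6.40 in P4_WT. P21_KO lay below both wild-type groups, which overlapped each other. It fell 2.89-fold in P21_KO against P4_WT (log2 -1.53 ± 0.31 SE, limma adjusted p = 0.0222, kept in 5 of 8 fits), and its genotype change of -0.92 ± 0.31 did not pass (adjusted p = 0.656).

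Complex V joins a catalytic F1 head to a membrane ring by a central and a peripheral stalk. Both subunits of the peripheral stalk that passed the test were among the members with the smallest p. Atp5h, subunit d, read 7.68, 7.67, 7.96 and 7.94 in P21_KO, 8.00 and 8.23 in P21_WT, and 8.78 and 8.86 in P4_WT. The 3 groups did not overlap, and P4_WT was highest. It fell 2.01-fold in P21_KO against P4_WT (by 1.00 ± 0.16 SE on the log2 scale, limma adjusted p = 0.00766), and 7 of 8 fits that left out an array kept the call. That is the brighter of 2 rows: the other averaged 2.70, below the median of all values, with a change of 0.50, and the mean of both rows changed by -0.25 (adjusted p = 0.43). Atp5pb, subunit b, read 6.84, 6.66, 6.60 and 6.92 in P21_KO, 6.79 and 6.93 in P21_WT, and 7.48 and 7.76 in P4_WT. Its P21 groups overlapped below P4_WT, and it fell by 0.87 ± 0.16 in P21_KO against P4_WT (limma adjusted p = 0.0155, kept in 7 of 8 fits). The other stalk genes, Atp5j and Atp5o, did not pass. For the 4 stalk genes the median change was -0.55 with age, -0.20 with genotype and -0.79 in P21_KO against P4_WT.

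In the F1 head, Atp5a1 and Atp5b encode the alpha and beta subunits that form the catalytic sites. Atp5b read 9.31, 9.09, 8.93 and 9.08 in P21_KO, 9.52 and 9.34 in P21_WT, and 9.64 and 9.85 in P4_WT. P21_KO was lowest and P4_WT highest, with small gaps between the groups. Atp5a1 and Atp5b fell in P21_KO against P4_WT by 0.89 ± 0.21 and 0.64 ± 0.16 (limma adjusted p = 0.0374 and 0.0481). These calls held in 2 and 1 of 8 fits that left out an array. Neither held with only the 2 groups fitted (limma adjusted p = 0.0506 and 0.069), the same fit as without either P21_WT array. The 5 head genes had median changes of -0.31 with age, -0.33 with genotype and -0.64 in P21_KO against P4_WT. Atp5j, a stalk gene, and Atp5b had the smallest genotype p of complex V, with changes of -0.43 ± 0.21 and -0.33 ± 0.16 (limma adjusted p = 0.807 and 0.81).

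The c subunit, which forms the rotating ring, is encoded by 3 genes for 1 mature protein. Atp5g2 read 9.33, 8.84, 9.00 and 9.21 in P21_KO, 9.48 and 9.30 in P21_WT, and 10.05 and 9.96 in P4_WT, and fell by 0.91 ± 0.17 in P21_KO against P4_WT (limma adjusted p = 0.0176, kept in 6 of 8 fits). Atp5g3 read 7.70, 7.48, 7.77 and 7.88 in P21_KO, 8.08 and 7.91 in P21_WT, and 8.20 and 8.66 in P4_WT, and its change of -0.72 ± 0.18 missed the threshold (adjusted p = 0.0519). Atp5g1 read 2.92, 3.04, 2.90 and 3.57 in P21_KO, 3.16 and 2.90 in P21_WT, and 3.06 and 3.03 in P4_WT, near the floor and with no separation. Atp5mpl, a small subunit of the membrane part, fell by 0.74 ± 0.19 in P21_KO against P4_WT (limma adjusted p = 0.0486, kept in 1 of 8 fits that left out an array).

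For the subunits encoded in mitochondrial DNA the differences were small in size. All 10 that were measured averaged 10.95, 10.89, 10.93 and 10.85 in P21_KO, 10.99 and 10.92 in P21_WT, and 11.03 and 10.99 in P4_WT. Their median change was -0.04 with age, -0.02 with genotype and -0.04 in P21_KO against P4_WT, and limma called 0 in each, with 1 at an unadjusted p under 0.05 in P21_KO against P4_WT and 0 in the other 2. By sign, 7 of 10 were negative with age, 9 with genotype and 7 in P21_KO against P4_WT, and 5 of 10 (50%) lay wholly below P4_WT both in P21_WT and in P21_KO, against 22.1% and 15.5% of all genes. ND5, a membrane subunit of complex I, had the largest difference, at 10.72, 10.62, 10.58 and 10.54 in P21_KO, 10.95 and 10.74 in P21_WT, and 11.09 and 10.97 in P4_WT. Its change of -0.41 ± 0.14 in P21_KO against P4_WT had an adjusted p of 0.129. These rows read near the top of the array's range, which reached 12.2, and whether saturation narrowed their differences was not tested. Nor was the difference between nuclear and mitochondrial genes.

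**Figure D5:**
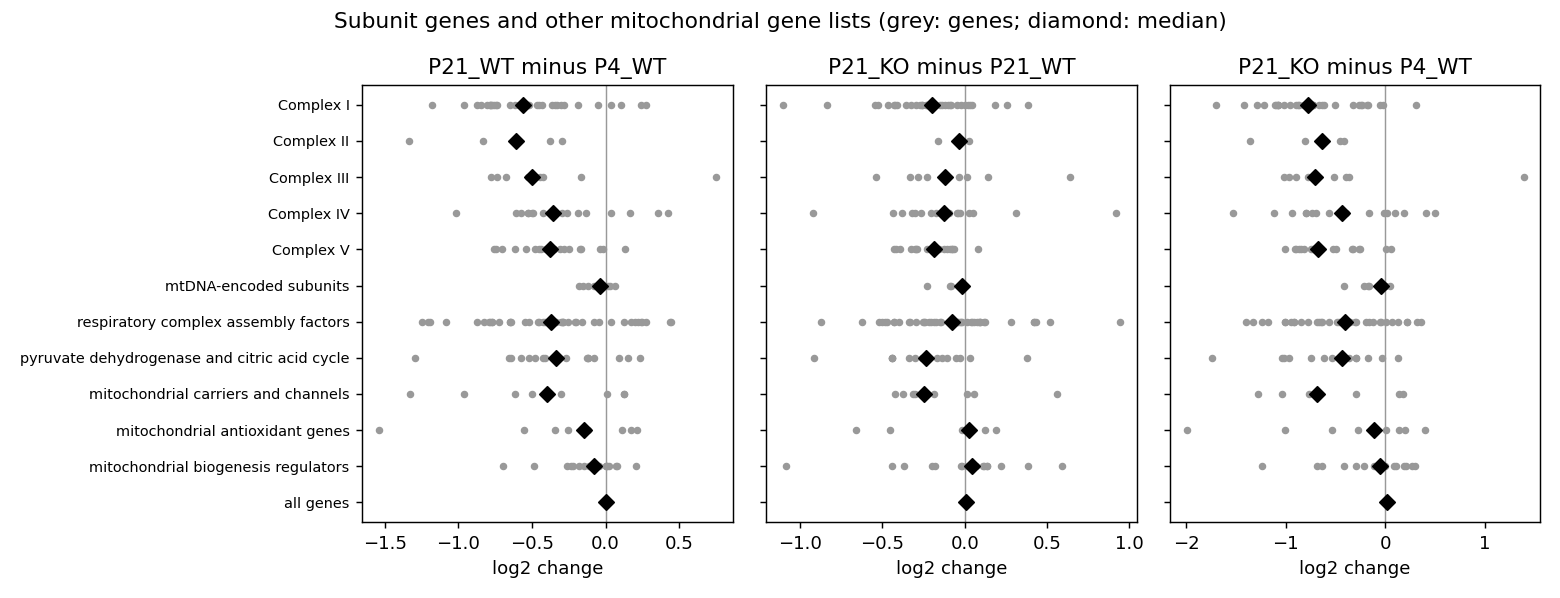
Log2 changes of the genes (grey points) and their medians (diamonds) for complexes I to V, 6 other lists of mitochondrial genes and all genes in the 3 comparisons. The medians of the 5 complexes lie left of 0 in each panel, and those of the subunits encoded in mitochondrial DNA and of the biogenesis regulators stay within 0.1 of it.

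Genes that build or feed the respiratory chain were set beside its subunits. Of 43 measured assembly factors 33 were negative in the age comparison, with a median of -0.37, and in P21_KO against P4_WT 36 were negative, with a median of -0.41, and 4 fell (9.30%), against 4.68% of all genes and 7.98% of those above the median of all values. Those 4 were Cox14, a factor of complex IV (log2 -1.01 ± 0.18 SE), and the complex I factors Tmem126b (-1.40 ± 0.29), Ndufaf8 (-0.91 ± 0.19) and Ndufaf1 (-0.94 ± 0.21), with limma adjusted p from 0.0141 to 0.0305. Their calls were kept in 4 (Ndufaf1) to 6 (Cox14) of 8 fits that left out an array. Of 16 genes of pyruvate dehydrogenase and the citric acid cycle 15 were negative in P21_KO against P4_WT, with a median of -0.44. Of these genes 2 fell (12.5%), against 4.68% of all genes. Suclg2, a subunit of succinyl-CoA ligase, read 5.33, 4.88, 5.34 and 5.54 in P21_KO, 6.15 and 5.28 in P21_WT, and 7.15 and 6.87 in P4_WT, and P21_WT replicate 2 read as low as P21_KO. It fell by 1.74 ± 0.27 in P21_KO against P4_WT (limma adjusted p = 0.00775). Fh1, fumarase, fell by 0.96 ± 0.19 (adjusted p = 0.0197). Slc25a4, the ADP/ATP carrier that exports the product of complex V, read 7.51, 7.08, 7.16 and 7.25 in P21_KO, 7.86 and 7.48 in P21_WT, and 8.26 and 8.30 in P4_WT. It fell by 1.03 ± 0.18 in P21_KO against P4_WT (adjusted p = 0.0112). The calls of Suclg2, Fh1 and Slc25a4 were kept in 7, 5 and 6 of 8 such fits.

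Regulators of mitochondrial biogenesis showed no common shift: 9 of 16 were negative with age, with a median of -0.08, and the median in P21_KO against P4_WT was -0.05. Ppargc1a, the coactivator PGC-1alpha, was the 1 called in P21_KO against P4_WT (6.25% of the list, against 4.68% of all genes lower). It read 3.20, 3.10, 3.46 and 2.60 in P21_KO, 3.86 and 4.50 in P21_WT, and 4.26 and 4.39 in P4_WT. P21_KO lay below both wild-type groups, which overlapped, and its fall of 1.24 ± 0.26 against P4_WT passed the test (limma adjusted p = 0.0271). That call was kept in 5 of 8 fits that left out an array. Its P21_KO values lie around the median of all values, 3.23, and so near the floor. Of 9 antioxidant genes 2 fell in P21_KO against P4_WT (22.2%), against 4.68% of all genes. The median of the list was -0.11, with 5 of 9 negative. The mitochondrial peroxidase gene Prdx3 fell by 2.00 ± 0.40 and the glutathione peroxidase gene Gpx1 by 1.00 ± 0.16 (limma adjusted p = 0.0214 and 0.00815). Their calls were kept in 6 and 7 of 8 such fits.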

How the data were processed

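Gene expression was measured on 8 arrays in 3 groups (P21_KO 4, P21_WT 2, P4_WT 2). The authors deposited log2 values. RMA, a method that corrects background, brings arrays to 1 distribution and summarises each probe set, was run in Affymetrix Expression Console according to the submitters' processing notes, with no version stated in the sources used here. RNA was amplified before labelling, per the labels' protocols. Of 41345 rows, 23521 had 1 gene symbol, 1814 several, and 16010 were unnamed here. Of several rows for a gene the one with the highest mean was kept, which left 22180 genes, with no filter on dim ones. Using lmFit and eBayes of limma 3.58.1 in R 4.3.3, 1 model of the 3 groups was fitted over the 8 arrays, with 5 residual degrees of freedom. P-values are two-sided and adjusted by Benjamini-Hochberg over the 22180 genes. Those with an adjusted p under 0.05 are the called genes.

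The members and lists were chosen with earlier results of these data known, and the grouping of members by role after their values were seen, so lists are described by counts and medians and got no test. Members named are those called (at most 8 per comparison), the 2 with the smallest p per complex for age and genotype, complex II, Cyc1, Cycs, the complex I core, the isoform sets and the largest rises, with the called genes of each list. Further called members are named without array values. Promoters were searched for exact motifs. The other floxed gene and 1 gene of the complex I core are not reported here. Alternatives covered the arrays in the fit, weights, prior, 3 normalizations, a dim filter, the choice of row, blocks, the threshold and leaving out each array. For P21_KO against P4_WT, leaving out either P21_WT array gives the same fit as the 2 compared groups alone. Whether replicate numbers pair the arrays is not stated. Deviations of same-numbered arrays correlated at -0.04 to 0.01, but so few arrays cannot decide it.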

Additional observations from a re-analysis of the deposited data

Results flagged for a closer look

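Within the 4 P21_KO arrays, 3 members had 1 array far from the other 3, measured as its gap to the nearest array over the whole range (above Dixon's critical value for 4 samples). For Atp5j, a peripheral stalk gene of complex V, the ratio was 0.847, with replicate 2 low at 4.68 against 5.17 to 5.26. For Sdha, the flavoprotein of complex II, it was 0.856, with replicate 4 low at 6.31 against 7.02 to 7.14. For Ndufa4l2, a relative of Ndufa4, it was 0.869, with replicate 4 high at 5.86 against 3.98 to 4.23. In all, 51 sets of values were looked at, and chance gives about 1 such flag in 20.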

How the results depend on the processing

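The median over all members kept its sign in every alternative for which it was computed (all but array weights, the prior and the threshold), between -0.54 and -0.37 for age, -0.23 and -0.07 for genotype, and -0.75 and -0.59 for P21_KO against P4_WT. Leaving out single arrays gave 0 to 1 called members for age, 0 to 0 for genotype and 3 to 21 for P21_KO against P4_WT. The replicate number as a block, a pairing that is not known to hold, gave 0 called members for age and 0 for P21_KO against P4_WT (complex III median -0.87). In the genotype comparison it gave a complex II median of 0.0054, Sdha 0.0763 and Sdhc 0.0398. No age call was left with only the 2 groups fitted (0), a trended robust prior (0) or cyclic loess (0), and an adjusted p under 0.10 gave 2 for age and 39 for P21_KO against P4_WT. Repeated quantile normalization moved the complex IV median to -0.22 for age and to -0.29 for P21_KO against P4_WT, and that of complex V to -0.54 in the last. Leaving out dim genes moved complex IV to -0.63 in P21_KO against P4_WT. Array by array, genotype medians ran from -0.19 to 0.0598 for complex II and -0.23 to 0.0493 for complex III, and single genes from -0.36 to 0.0429 for Sdha, -0.35 to 0.26 for Sdhc and -0.23 to 0.19 for Cycs. Age medians ran from -0.78 to -0.44 for complex II, -0.62 to -0.35 for complex III and -0.49 to -0.19 for complex IV, and in P21_KO against P4_WT from -0.82 to -0.46 for complex III and -0.67 to -0.40 for complex IV. Ndufv1, at -0.02 in P21_KO against P4_WT, was 0.10 under cyclic loess, 0.14 under repeated quantile normalization, 0.31 with the replicate block and -0.22 to 0.15 array by array. The causes of these shifts were not tested. Dim members (7 below the median of all values) lie near the floor of the scale, which limits the differences that can be seen.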

Other observations

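Some gene lists fixed beside the subunits moved in other ways. All 4 measured cycling cell markers fell with age, against 0.852% of all genes, with a median log2 change of -2.88. Between P21_KO and P21_WT their median was -0.72 with 0 called by limma. At an unadjusted p under 0.05, 2 of them were lower there, against 818 of 22180 genes. Melanocyte markers had a median of -1.71 in P21_KO against P4_WT, where 5 of 9 fell, against 4.68% of all genes lower and 3.05% higher. Sox10, a transcription factor of the lineage, rose, at 8.22, 8.32, 7.79 and 8.22 in P21_KO, against 7.23 and 7.43 in P4_WT. Keratinocyte markers, 6 measured, had a median of 0.98 with age, with 0 called by limma. At an unadjusted p under 0.05, 3 of them were higher, against 1146 of 22180 genes.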
